A study of Homo sapiens with 6 samples.

Results

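H19, IGF2 and 6 other imprinted genes, IGF2R, PEG10, MEST, GRB10, PLAGL1 and PHLDA2, were followed in A549, a cell line from a human lung adenocarcinoma, whose cells stably carried a lentiviral hairpin. The genes were taken by name, as the entries of a RefSeq transcript table that map to the 8 symbols, and make up 8 of the 28436 genes in that table. They were chosen with earlier fold changes of these same libraries in view, so their values are given as a description, without p-values, and a count of those past a threshold is given once beside the share of all genes. The series title concerns gene repression in lung adenocarcinoma by CBX8, which belongs to the Polycomb repressive complex PRC1 and binds methylated histone H3. There were 3 groups of 2 libraries each: shCBX8_1 and shCBX8_2, whose lentivirus expressed an shRNA against CBX8, and Control, whose lentivirus expressed a control shRNA. All were grown in the same medium, and no sequence of either hairpin was used here. Whether libraries within a group are from separate cultures is not stated, so p-values measure only the spread between these libraries, which may be technical.

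An imprinted gene is transcribed mainly from the copy inherited from one parent. At 11p15.5 the non-coding RNA H19 is read from the maternal copy and the growth factor gene IGF2 from the paternal copy. The control region between them, upstream of H19, binds the insulator protein CTCF on the unmethylated maternal copy. Loss of this pattern is common in tumours, and H19 is abundant in fetal tissue and low in most adult tissue. Which parental copy was read cannot be told from the table used here.

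H19 also carries a microRNA precursor in its first exon, MIR675, shown because it lies inside the RNA with the largest fold change of these 8 genes. In the RefSeq sequences of build GRCh38.p14 the hairpin lies at chr11:1996759-1996831 on the minus strand, at bases 1045 to 1117 of the GENCODE transcript of 2348 bases. Capitals mark the mature arms in the hairpin and the seed, bases 2 to 8, in the arms.
MIR675 hairpin: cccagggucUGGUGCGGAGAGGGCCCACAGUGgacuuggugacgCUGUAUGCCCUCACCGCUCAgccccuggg
hsa-miR-675-5p: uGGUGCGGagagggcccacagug
hsa-miR-675-3p: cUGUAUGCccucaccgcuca
The table's MIR675 entries held 3 and 5 estimated counts in the shCBX8_1 libraries, 15 and 11 in the shCBX8_2 libraries, and 4 and 2 in the Control libraries. These counts are few, and reads of the hairpin cannot be told apart from reads of H19 itself.

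CBX8, the gene targeted by the hairpins, was at 7.79 and 7.70 CPM (TMM-scaled counts relative to a common library total) in shCBX8_1 and 17.7 and 13.8 CPM in shCBX8_2, against 24.6 and 26.3 CPM in Control. The mean was 30.4% of Control in shCBX8_1 and 61.9% in shCBX8_2. The log2 fold change was -1.72 ± 0.16 (SE) in shCBX8_1 and -0.69 ± 0.15 in shCBX8_2, with adjusted p = 0.00704 and adjusted p = 0.0297 in edgeR's quasi-likelihood test. CBX8 was higher in shCBX8_2 than in shCBX8_1 by 1.02 ± 0.15 log2 (adjusted p = 0.0114). Without 1 Control or 1 shCBX8_1 library the call of CBX8 was lost in both comparisons with Control. That in shCBX8_2 was also lost when only the libraries compared were fitted. The call between the hairpin groups was lost without 1 shCBX8_1 library, with adjusted p at most 0.119. Total estimated counts were 64197784 to 67169537 per library, and 17978 to 18781 genes had a count above 0. Between the 2 libraries of a group, the median absolute log2 difference of a gene was 0.115 in shCBX8_1, 0.207 in shCBX8_2 and 0.116 in Control. The keratins KRT8, KRT18 and KRT7, which mark simple epithelia, were at 1852 to 17125 CPM. Of the same epithelial list, ELF3 was at 321 to 372 CPM, while KRT19, EPCAM, CLDN4 and CDH1 were at 0.359 to 21.8 CPM. KRT19 was at 4.11 and 3.97 CPM in shCBX8_1 and 0.504 and 0.652 CPM in shCBX8_2, against 0.407 and 0.359 CPM in Control. CDH1 was at 11.3 and 10.4 CPM in shCBX8_1 and 18.5 and 17.6 CPM in shCBX8_2, against 19.3 and 21.8 CPM in Control. Of 8 leukocyte markers 3 were at 0 in all libraries, as were 1 of 8 fibroblast and 1 of 6 endothelial markers. The summed level of the leukocyte list was 140 to 143 CPM in shCBX8_1, 110 to 116 CPM in shCBX8_2 and 93.8 to 97 CPM in Control. CD68 held most of that sum, with means of 119 CPM in shCBX8_1, 94.8 CPM in shCBX8_2 and 82.8 CPM in Control. For CORO1A the means were 19.7 CPM in shCBX8_1, 14.8 CPM in shCBX8_2 and 7.71 CPM in Control. CD14 went the other way, with means of 2.46 CPM in shCBX8_1, 3.27 CPM in shCBX8_2 and 4.53 CPM in Control. LYZ was at 0.153 to 0.489 CPM, with overlapping groups. The pan-leukocyte marker PTPRC was at 0 in 5 of 6 libraries and at 0.181 CPM in the other. Fibroblast markers summed to 8.94 to 10 CPM in shCBX8_1, 5.61 to 6.24 CPM in shCBX8_2 and 12.5 to 15 CPM in Control, and endothelial markers to 3.2 to 4.29 CPM in shCBX8_1, 4.83 to 5.94 CPM in shCBX8_2 and 2 to 2.82 CPM in Control. A list of genes of the HEK293 packaging type summed to 533 to 556 CPM in shCBX8_1, 491 to 547 CPM in shCBX8_2 and 407 to 416 CPM in Control. The neuronal tubulin gene TUBB3 held most of that sum, with 416 and 406 CPM in shCBX8_1 and 478 and 413 CPM in shCBX8_2, against 300 and 294 CPM in Control. NEFL, a neurofilament gene of the same list, was at 55.9 and 54.2 CPM in shCBX8_1 and 20.3 and 18.3 CPM in shCBX8_2, against 37.8 and 41.2 CPM in Control. The epithelial list summed to 22390 to 22417 CPM in shCBX8_1, 28260 to 31925 CPM in shCBX8_2 and 24872 to 25731 CPM in Control. What part these differences have in the results was not tested, and in bulk RNA fewer cells of a type cannot be told apart from less RNA per cell.

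H19 was higher in both hairpin groups. It was at 45.8 and 50.7 CPM in shCBX8_1 and 177 CPM in both shCBX8_2 libraries, against 11.3 and 10.1 CPM in Control. The 3 groups did not overlap, with shCBX8_2 highest and Control lowest. The mean was 4.51 times that of Control in shCBX8_1 and 16.5 times in shCBX8_2. On the log2 scale the difference was 2.17 ± 0.10 in shCBX8_1 and 4.05 ± 0.10 in shCBX8_2, and shCBX8_2 exceeded shCBX8_1 by 1.88 ± 0.09. The order of H19 across the hairpin groups was thus the opposite of the order of knockdown, since the lower CBX8 level was in shCBX8_1. H19 lies at chr11:1995176-2001266 on the minus strand, and the annotated span of the ribosomal protein gene MRPL23 covers it. The strand setting of the counting is not given in the sources used here, so reads of overlapping genes are uncertain. MRPL23 itself differed from Control by -0.04 ± 0.09 log2 in shCBX8_1 and 0.09 ± 0.09 in shCBX8_2.

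**Figure D1:**
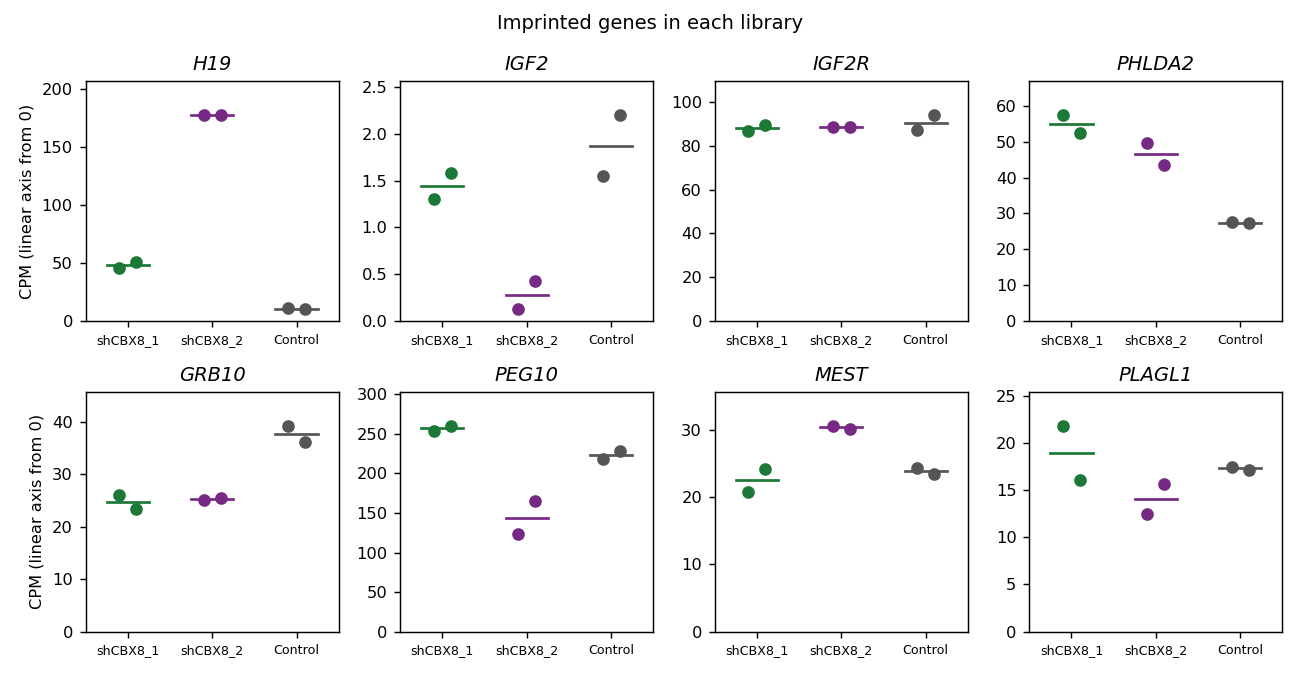
Level in CPM (linear axis from 0) of each of the 8 imprinted genes in each library, with shCBX8_1, shCBX8_2 and Control from left to right, points for the 2 libraries and a line at their mean. H19 stands at 45.8 and 50.7 in shCBX8_1 and 177 in shCBX8_2, above 11.3 and 10.1 in Control, while IGF2R lies between 86.9 and 93.9 in all libraries.

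The table splits H19 over 6 transcript entries, of which 3 are copies of an accession that is listed again with a suffix. NR_002196 was the entry with most counts, at 2001 and 2085 estimated counts in shCBX8_1, 7486 and 7083 in shCBX8_2, and 591 and 548 in Control. NR_131223 had 526 and 604 counts in shCBX8_1, 1987 and 1748 in shCBX8_2, and 51 and 39 in Control. Both accessions pair with the same GENCODE transcript, which starts at base 1997875 of chromosome 11. NR_131223 made up 20.8 and 22.5% of the H19 counts outside the copies in shCBX8_1 and 21 and 19.6% in shCBX8_2, against 7.94 and 6.64% in Control. The 95% Wilson intervals, which cover counting error only, reached at most 2.35 percentage points either way, and the hairpin groups overlapped each other but not Control. The copy entries held 15.4 and 19.5% of H19 counts in shCBX8_1, 15.6 and 20% in shCBX8_2, and 14.1 and 13.5% in Control. Within shCBX8_2 the copies were divided differently between the libraries: NR_002196_2 had 1746 counts in replicate 1 and 66 in replicate 2, while NR_131223_2 had 0 counts in replicate 1 and 2171 in replicate 2. With the copies counted, the NR_131223 share was 17.6 and 18.1% in shCBX8_1, 17.7 and 35.1% in shCBX8_2, and 6.83 and 5.74% in Control. Without the copies the H19 level was 40.3 and 42.4 CPM in shCBX8_1, 150 and 148 CPM in shCBX8_2, and 9.99 and 9.05 CPM in Control, so the order of the groups did not depend on them.

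**Figure D2:**
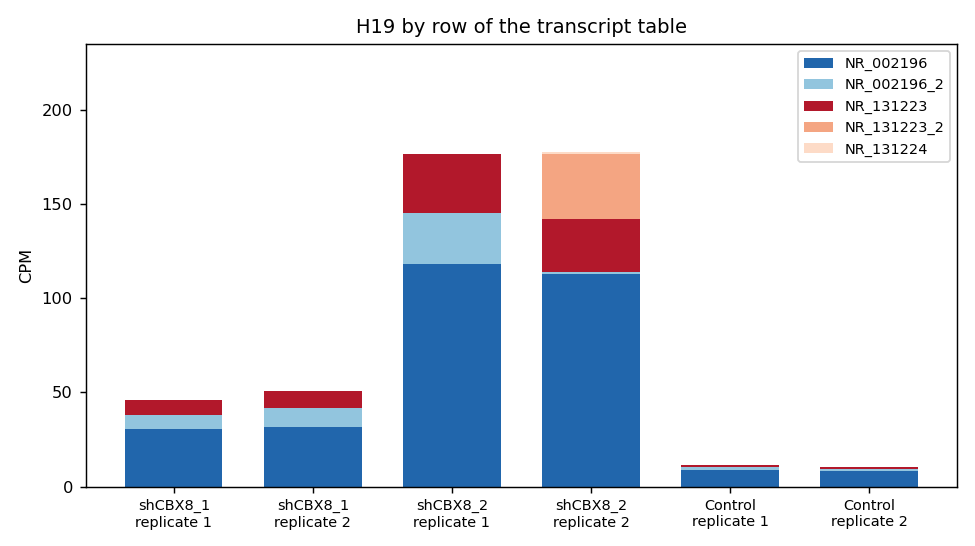
H19 level in CPM in each library, stacked by entry of the transcript table; a suffix _2 marks a repeated accession. NR_002196 gives most of every bar (8.19 to 118 CPM), and the split of the repeated accessions differs between the 2 shCBX8_2 libraries.

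The longest H19 form, NR_131224, starts upstream of the main start, towards the control region that CTCF binds. It had 97 counts in 1 shCBX8_2 library and 0 in the other 5 libraries. Its RefSeq start window, 250 bases before to 50 after the start at chr11:2001217-2001516 on the minus strand of GRCh38.p14, is printed because methylation of CG pairs marks imprinted control regions, and capitals mark each CG.
H19 upstream window: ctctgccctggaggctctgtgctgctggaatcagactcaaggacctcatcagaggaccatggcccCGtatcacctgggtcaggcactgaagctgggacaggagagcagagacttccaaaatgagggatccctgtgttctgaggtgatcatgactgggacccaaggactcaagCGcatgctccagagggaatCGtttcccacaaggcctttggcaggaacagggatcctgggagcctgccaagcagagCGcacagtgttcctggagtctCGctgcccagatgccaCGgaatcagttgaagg
The window holds 6 CG, and 66.3% of all 35116 RefSeq start windows of 300 bases hold at least as many. Methylation was not measured in these libraries.

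IGF2, a secreted growth factor that acts through the IGF1 receptor, was near the detection limit in these cells. It had 85 and 104 estimated counts in shCBX8_1 and 8 and 27 in shCBX8_2, against 103 and 147 in Control. In CPM it was at 1.30 and 1.58 in shCBX8_1 and 0.126 and 0.429 in shCBX8_2, against 1.55 and 2.20 in Control. The shCBX8_2 libraries lay below all others, and shCBX8_1 overlapped Control. Against Control the log2 difference was -0.38 ± 0.52 in shCBX8_1 and -2.75 ± 0.58 in shCBX8_2, whose mean was 14.8% of Control's. The shCBX8_2 difference was -2.11 without its replicate 1 and -3.87 without its replicate 2. In replicate 1 of Control 88 of the 103 counts were given to NM_001291861, which had 0 counts in the other 5 libraries, so levels by IGF2 transcript are uncertain. INS-IGF2, the read-through gene that shares its exons, and the antisense gene IGF2-AS were listed at 0 in all libraries.

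IGF2R, the receptor that clears IGF2 by carrying it to lysosomes and that is imprinted in mouse, was nearly level. It was at 86.9 and 89.7 CPM in shCBX8_1 and 88.6 and 88.7 CPM in shCBX8_2, against 87.3 and 93.9 CPM in Control. The groups overlapped, and the differences from Control were -0.04 ± 0.08 log2 in shCBX8_1 and -0.03 ± 0.08 in shCBX8_2.

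PHLDA2, a pleckstrin homology domain protein that restrains placental growth and is read from the maternal copy, was higher in both hairpin groups. It was at 57.4 and 52.4 CPM in shCBX8_1 and 49.7 and 43.5 CPM in shCBX8_2, against 27.5 and 27.4 CPM in Control. Neither hairpin group overlapped Control. The log2 difference was 1.00 ± 0.11 in shCBX8_1 and 0.76 ± 0.11 in shCBX8_2. The repeated accession of PHLDA2 held 49.4 to 49.7% of its counts in every library. Without it the level was 30.1 and 27.5 CPM in shCBX8_1 and 25.1 and 22.9 CPM in shCBX8_2, against 14.4 and 14.2 CPM in Control.

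GRB10, an adaptor that binds the insulin and IGF1 receptors and damps their signal, was lower in both hairpin groups. It was at 26.0 and 23.4 CPM in shCBX8_1 and 25.1 and 25.4 CPM in shCBX8_2, against 39.2 and 36.1 CPM in Control. Neither hairpin group overlapped Control, and the hairpin groups overlapped each other. The log2 difference was -0.61 ± 0.11 in shCBX8_1 and -0.57 ± 0.11 in shCBX8_2.

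The sum hid a difference in which GRB10 transcripts the counts were given to. NM_001001550, which by its GENCODE pairing starts inside the gene at base 50705301 of chromosome 7, held 67.6 and 86.7% of GRB10 counts in shCBX8_1 and 24.9 and 5.93% in shCBX8_2, against 56.8 and 87.1% in Control. Entries that start at or near the outer end of the gene held 17.8 and 11% in shCBX8_1 and 55.6 and 84.6% in shCBX8_2, against 35.7 and 6.5% in Control. For both shares shCBX8_2 stood apart from all other libraries, while shCBX8_1 and Control overlapped. Wilson 95% intervals were at most 2.45 percentage points either way, far less than the distance between libraries of 1 group. With 2 libraries a group, no test was made of these shares. The start windows of the main entries are printed to show how unlike they are, on the minus strand of GRCh38.p14, with each CG in capitals.
GRB10 outermost start, chr7:50793404-50793703: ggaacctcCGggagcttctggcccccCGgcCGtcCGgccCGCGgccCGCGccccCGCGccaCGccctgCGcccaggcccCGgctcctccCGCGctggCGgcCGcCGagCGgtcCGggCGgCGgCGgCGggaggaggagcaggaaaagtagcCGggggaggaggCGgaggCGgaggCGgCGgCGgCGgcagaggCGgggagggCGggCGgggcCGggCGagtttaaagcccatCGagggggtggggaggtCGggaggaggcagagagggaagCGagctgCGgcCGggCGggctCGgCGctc
GRB10 inner start, chr7:50705252-50705551: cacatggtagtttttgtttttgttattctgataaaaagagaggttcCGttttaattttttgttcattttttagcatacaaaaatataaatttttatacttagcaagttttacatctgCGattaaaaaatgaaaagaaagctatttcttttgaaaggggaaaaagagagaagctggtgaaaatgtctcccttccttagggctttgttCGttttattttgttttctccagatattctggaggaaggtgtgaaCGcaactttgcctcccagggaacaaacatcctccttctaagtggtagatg
The outermost window holds 44 CG, a number reached by 4.19% of all RefSeq start windows, and the inner window holds 4, reached by 75.5%.

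**Figure D3:**
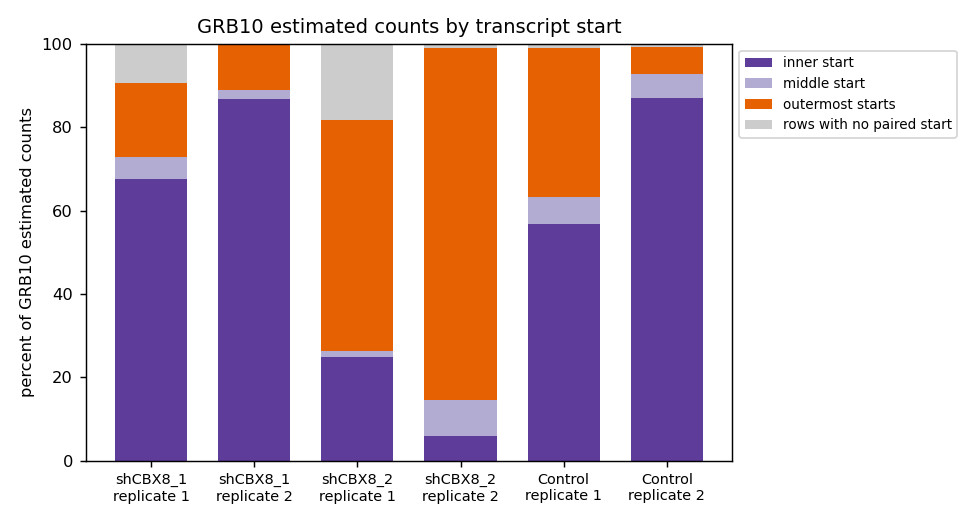
Percent of GRB10 estimated counts in each library by the GENCODE start paired with the transcript entry, with grey for entries that have no paired start. The inner start holds 67.6 and 86.7% in shCBX8_1, 24.9 and 5.93% in shCBX8_2, and 56.8 and 87.1% in Control.

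PEG10, a paternally read gene derived from a retrotransposon and active in placenta, was slightly higher in shCBX8_1 and lower in shCBX8_2. It was at 254 and 260 CPM in shCBX8_1 and 123 and 165 CPM in shCBX8_2, against 218 and 228 CPM in Control. None of the 3 groups overlapped another. Against Control the log2 difference was 0.20 ± 0.13 in shCBX8_1 and -0.63 ± 0.13 in shCBX8_2, and shCBX8_2 was below shCBX8_1, at -0.83 ± 0.13. Against Control the shCBX8_2 difference was -0.42 without its replicate 1 and -0.85 without its replicate 2. The split of PEG10 over its 6 transcript entries was unstable, as NM_001184962 had 3657 and 12126 counts in the 2 shCBX8_1 libraries. SGCE, the imprinted gene that shares the promoter region of PEG10, differed from Control by 0.10 ± 0.08 in shCBX8_1 and 0.01 ± 0.08 in shCBX8_2.

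MEST, a paternally read gene of the alpha/beta hydrolase family, was at 20.8 and 24.2 CPM in shCBX8_1 and 30.6 and 30.2 CPM in shCBX8_2, against 24.3 and 23.4 CPM in Control. The shCBX8_2 libraries were highest, and shCBX8_1 overlapped Control. The log2 difference was -0.08 ± 0.12 in shCBX8_1 and 0.35 ± 0.12 in shCBX8_2. Most MEST counts were given to entries of the upstream start, while the downstream start, which lies in the imprinted CpG island, had 0 counts in 4 libraries. Its other counts were 82 (4.23% of the gene) in 1 shCBX8_2 library and 501 (32%) in 1 Control library. Taking 3 counts as the most that a count of 0 allows, the share in those 4 libraries was at most 0.158 to 0.221%, and the upper Wilson 95% limits were 0.202 to 0.282%, both for counting error only.

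PLAGL1, a paternally read zinc finger factor that restrains growth, was at 21.8 and 16.1 CPM in shCBX8_1 and 12.5 and 15.6 CPM in shCBX8_2, against 17.5 and 17.1 CPM in Control. The shCBX8_2 libraries lay below Control and shCBX8_1 spanned it. The log2 difference was 0.13 ± 0.18 in shCBX8_1 and -0.31 ± 0.18 in shCBX8_2. HYMAI, a non-coding RNA that overlaps PLAGL1, had 1 to 17 counts in every library.

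All 8 genes passed the filter on low counts, and in edgeR's test with Benjamini-Hochberg adjustment over 17106 genes at a threshold of 0.05 the counts of calls were as follows. In shCBX8_1 H19 and PHLDA2 passed as higher and GRB10 as lower, 2 and 1 of 8, where 1.34% of all genes passed as higher and 1.13% as lower. In shCBX8_2 H19 and PHLDA2 passed as higher and IGF2, PEG10 and GRB10 as lower, where 6.03% of all genes passed as higher and 6.66% as lower. For the mean of both hairpin groups the calls were those of shCBX8_1, where 3.32% passed as higher and 3.5% as lower. Between shCBX8_2 and shCBX8_1 H19 passed as higher and IGF2 and PEG10 as lower, where 4.05% passed as higher and 5.79% as lower. Since the genes were selected on these contrasts, nothing is read from these counts. With 1 library left out at a time the calls among the 8 changed, and so did the number of calls over all genes tested. Without 1 Control or 1 shCBX8_1 library GRB10 passed in neither hairpin group, IGF2 and PEG10 did not pass in shCBX8_2, and PHLDA2 did not pass in shCBX8_1. PHLDA2 in shCBX8_2 did not pass without 1 Control library, and H19 in shCBX8_1 did not pass without Control replicate 2 or without 1 shCBX8_1 library. GRB10 in shCBX8_1 also did not pass with no filter on low counts or without repeated accessions, PEG10 in shCBX8_2 with no filter, and IGF2, PEG10 and GRB10 in shCBX8_2 when only the libraries compared were fitted. Between the hairpin groups the IGF2 and PEG10 calls were lost without 1 Control or 1 shCBX8_1 library and when only the libraries compared were fitted. That of IGF2 was also lost with no filter on low counts and without repeated accessions. Both comparisons with Control use the same Control libraries. The median log2 difference of the 8 was 0.05 in shCBX8_1 and -0.17 in shCBX8_2, beside -0.01 and -0.04 over all genes tested.

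**Figure D4:**
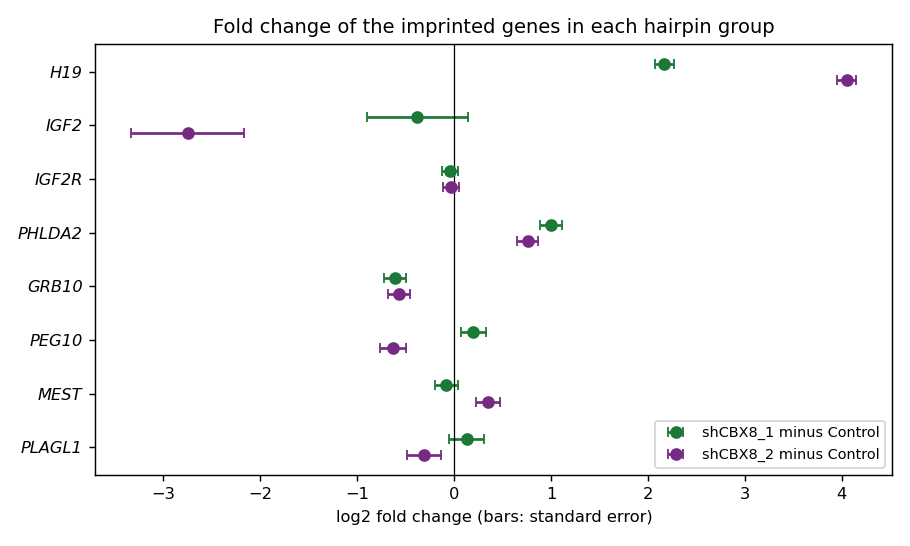
Log2 fold change against Control of the 8 imprinted genes in shCBX8_1 and shCBX8_2, with bars for the standard error from edgeR. H19 lies at 2.17 and 4.05, PHLDA2 at 1.00 and 0.76, and GRB10 at -0.61 and -0.57, while IGF2 lies at -0.38 in shCBX8_1 and -2.75 in shCBX8_2.

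Of 22 listed genes near H19 on 11p15.5, 13 were tested, and 0 passed in shCBX8_1, where 2 had an unadjusted p under 0.05 in edgeR and 1 was called by DESeq2. In shCBX8_2 1 was higher and 2 were lower, 23.1% of the 13, where 6.03% of all genes passed as higher and 6.66% as lower. This list and the lists below were chosen with earlier results of these data known, so nothing is read from their shares of calls. CTSD, a lysosomal protease gene, rose by 0.55 ± 0.10 log2 in shCBX8_2 (adjusted p = 0.0153) and was at -0.37 ± 0.10 in shCBX8_1 (adjusted p = 0.115). The lipid transfer gene OSBPL5 fell by 0.61 ± 0.15 in shCBX8_2, with an edgeR adjusted p = 0.0432, and was at -0.25 ± 0.15 in shCBX8_1. SLC67A1, listed by its older symbol SLC22A18 and adjacent to PHLDA2, fell by 0.41 ± 0.11 in shCBX8_2 (adjusted p = 0.0475), but the antisense gene SLC67A1-AS overlaps it, so the count is uncertain. CD81 and TSSC4, between IGF2 and KCNQ1, were within 0.13 log2 of Control in both hairpin groups. The cell cycle inhibitor gene CDKN1C had 16 and 12 counts in shCBX8_1 and 4 and 8 in shCBX8_2, against 16 and 42 in Control, and did not pass. The list's median was -0.02 in shCBX8_1 and 0.06 in shCBX8_2. Without 1 Control library the CTSD call in shCBX8_2 was lost, with adjusted p at most 0.101. The calls of OSBPL5 and SLC67A1 were lost without 1 Control or 1 shCBX8_1 library, and when only the libraries compared were fitted. The OSBPL5 call was also lost with no filter on low counts, and the SLC67A1 call with DESeq2 size factors and without repeated accessions.

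**Figure D5:**
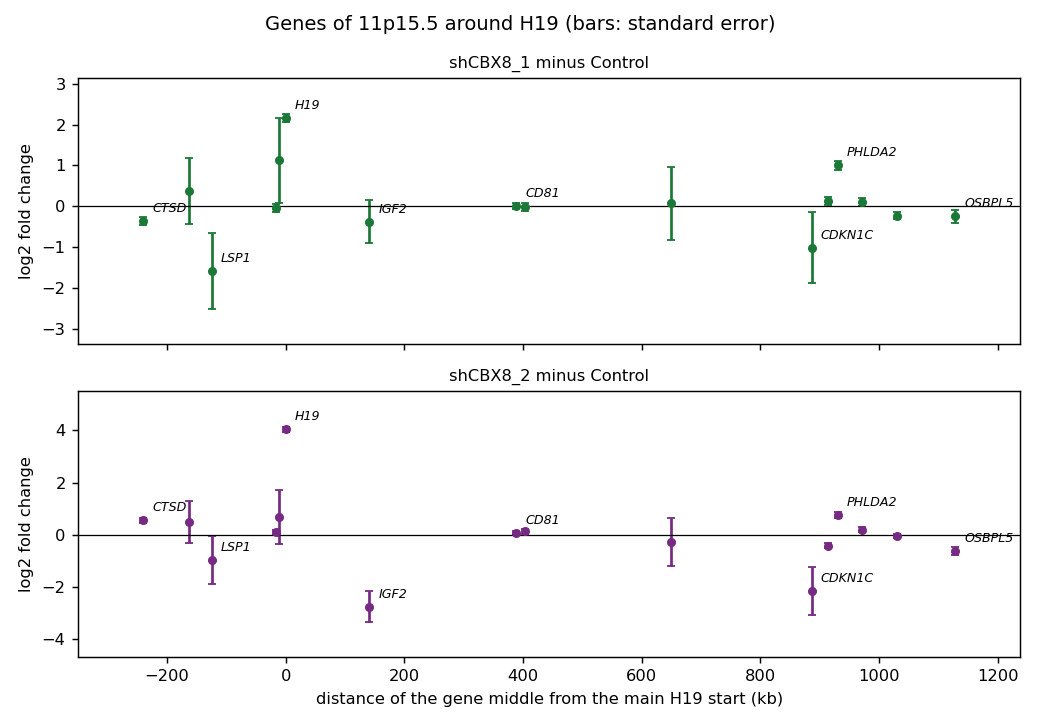
Log2 fold change against Control (bars: standard error) of the tested genes of 11p15.5 by the distance of the middle of each gene from the main H19 start, in kb, for shCBX8_1 above and shCBX8_2 below. H19 at 0 kb stands highest in both panels, and CD81 at 389 kb lies at 0.00 and 0.06.

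Among 65 other imprinted genes 46 were tested and 12 had no counts in any library, PEG3, DLK1, NDN and RTL1 among them. In shCBX8_1 1 rose and 1 fell, and in shCBX8_2 1 rose and 4 fell, with list medians of 0.05 in shCBX8_1 and -0.07 in shCBX8_2. That is 4.35% of the 46 in shCBX8_1, where 1.34% of all genes passed as higher and 1.13% as lower, and 10.9% in shCBX8_2, where 6.03% passed as higher and 6.66% as lower. CPA4, a carboxypeptidase gene on chromosome 7 beside MEST, was at 30.1 and 31.8 CPM in shCBX8_1 and 41.3 and 38.5 CPM in shCBX8_2, against 17.8 and 16.7 CPM in Control. It rose by 0.85 ± 0.11 log2 in shCBX8_1 (adjusted p = 0.0191) and by 1.21 ± 0.11 in shCBX8_2 (adjusted p = 0.00238). SNRPN, which encodes a spliceosome protein and is read from the paternal copy, was at 41.4 and 54.2 CPM in shCBX8_1 and 88.0 and 81.1 CPM in shCBX8_2, against 90.4 and 89.2 CPM in Control. It fell by 0.91 ± 0.13 in shCBX8_1 (adjusted p = 0.0269) and was at -0.09 ± 0.13 in shCBX8_2. Reads of SNRPN and of SNURF, which share exons, could be split by the counting, so this value is uncertain. DDC, the aromatic amino acid decarboxylase gene next to GRB10, fell by 1.10 ± 0.25 in shCBX8_2 with an edgeR adjusted p = 0.0328. In shCBX8_1 DDC was at -0.71 ± 0.25 and did not pass. NAP1L5, a paternally read histone chaperone gene, fell by 1.15 ± 0.25 in shCBX8_2 (adjusted p = 0.0308) and was at -0.31 ± 0.25 in shCBX8_1. The other called genes were OSBPL5 and SLC67A1, described with the 11p15.5 genes. The CPA4 call in shCBX8_2 held without any 1 library, with adjusted p at most 0.0493. Without 1 Control or 1 shCBX8_1 library the other calls of CPA4, SNRPN, DDC and NAP1L5 were lost, and that of NAP1L5 also without replicate 1 of shCBX8_2. Those of DDC and NAP1L5 were also lost when only the libraries compared were fitted.

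Genes that control the availability of IGF ligands moved in mixed directions. Of 29 listed genes of IGF signalling 25 were tested. In shCBX8_1 1 rose and 3 fell, in shCBX8_2 3 rose and 4 fell, and the list medians were -0.07 in shCBX8_1 and 0.02 in shCBX8_2. That is 16% of the 25 in shCBX8_1, where 1.34% of all genes passed as higher and 1.13% as lower, and 28% in shCBX8_2, where 6.03% passed as higher and 6.66% as lower. The list was chosen with earlier results of these data known, so nothing is read from these shares. PAPPA, the protease that frees IGFs from their binding proteins, was at 51.0 and 50.7 CPM in shCBX8_1 and 36.3 and 40.2 CPM in shCBX8_2, against 91.6 and 104 CPM in Control. It fell by 0.94 ± 0.10 log2 in shCBX8_1 (adjusted p = 0.0109) and by 1.36 ± 0.10 in shCBX8_2 (adjusted p = 0.00168). STC2, an inhibitor of PAPPA, rose by 0.48 ± 0.09 in shCBX8_1 (adjusted p = 0.0458) and by 0.72 ± 0.09 in shCBX8_2 (adjusted p = 0.00505). STC1, its relative, fell by 1.41 ± 0.16 in shCBX8_1 (adjusted p = 0.0148) and was at -0.17 ± 0.16 in shCBX8_2. The binding protein gene IGFBP1 rose by 1.24 ± 0.16 in shCBX8_2 (adjusted p = 0.00576) and was at 0.58 ± 0.15 in shCBX8_1 (adjusted p = 0.116). IGFBP3, chosen after its values were seen, fell by 0.77 ± 0.10 in shCBX8_1 (adjusted p = 0.0182) and rose by 0.43 ± 0.10 in shCBX8_2 (adjusted p = 0.0306). Also chosen after their values were seen, the IGF1 receptor gene IGF1R fell by 0.31 ± 0.07 in shCBX8_2 (adjusted p = 0.0393), its adaptor IRS2 by 0.50 ± 0.10 (adjusted p = 0.023) and the RNA-binding protein gene IGF2BP2 by 0.63 ± 0.16 (adjusted p = 0.0444). The PAPPA call in shCBX8_2 held without any 1 library. The other shCBX8_2 calls of STC2 and IGFBP1 were lost without 1 Control library, with adjusted p up to 0.0871, and the shCBX8_1 calls of PAPPA, STC2 and STC1 without 1 Control or 1 shCBX8_1 library, with adjusted p up to 0.318. Both calls of IGFBP3 against Control were lost without 1 Control or 1 shCBX8_1 library. Its shCBX8_2 call was also lost when only the libraries compared were fitted. Its difference between the hairpin groups passed without any 1 library. The calls of IGF1R, IRS2 and IGF2BP2 were lost without 1 Control or 1 shCBX8_1 library, and when only the libraries compared were fitted. That of IGF2BP2 was also lost without replicate 1 of shCBX8_2, with no filter on low counts and without repeated accessions.

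Of 28 listed genes whose products keep or read imprints 21 were tested, and 5 rose and 0 fell in shCBX8_2, 23.8% of the 21, where 6.03% of all genes passed as higher and 6.66% as lower. In shCBX8_1 0 passed, where edgeR gave 3 with an unadjusted p under 0.05 and DESeq2 called 2. The median was 0.03 in shCBX8_1 and 0.08 in shCBX8_2. DNMT1, the methyltransferase that copies methylation after replication, was at 143 and 142 CPM in shCBX8_1 and 186 and 163 CPM in shCBX8_2, against 118 and 117 CPM in Control. It rose by 0.57 ± 0.08 log2 in shCBX8_2 (adjusted p = 0.00878) and was at 0.28 ± 0.08 in shCBX8_1 (adjusted p = 0.155). SMC1A, a cohesin subunit gene, rose by 0.61 ± 0.07 in shCBX8_2 (adjusted p = 0.00439) and was at -0.01 ± 0.07 in shCBX8_1. CTCF, the insulator of the H19 control region, rose by 0.35 ± 0.08 in shCBX8_2 (adjusted p = 0.036), and MBD3, a subunit of the NuRD complex, by 0.50 ± 0.11 (adjusted p = 0.0289). In shCBX8_1 CTCF was at 0.11 ± 0.08 and MBD3 at 0.24 ± 0.11. SMC3, another cohesin subunit gene, chosen after its values were seen, rose by 0.42 ± 0.08 in shCBX8_2 (adjusted p = 0.0199). Each of these 5 calls was lost without 1 Control library. Those of CTCF, MBD3 and SMC3 were also lost without 1 shCBX8_1 library and when only the libraries compared were fitted.

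Of 16 genes known for expression in fetal tissue and tumours, 11 were tested. In shCBX8_1 1 rose, 9.09% of the 11, where 1.34% of all genes passed as higher. In shCBX8_2 1 rose and 1 fell, 18.2%, where 6.03% of all genes passed as higher and 6.66% as lower. CEACAM6, a cell adhesion molecule of the carcinoembryonic antigen family, was at 216 and 244 CPM in shCBX8_1 and 230 and 237 CPM in shCBX8_2, against 103 and 99.5 CPM in Control. It rose by 1.18 ± 0.08 log2 in shCBX8_1 (adjusted p = 0.00338) and by 1.20 ± 0.08 in shCBX8_2 (adjusted p = 0.00146). HMGA2, a chromatin architectural protein gene, was at 29.7 and 28.3 CPM in shCBX8_1 and 4.87 and 8.23 CPM in shCBX8_2, against 16.7 and 17.5 CPM in Control. It fell by 1.39 ± 0.23 in shCBX8_2 (adjusted p = 0.0133) and was at 0.76 ± 0.23 in shCBX8_1 (adjusted p = 0.152). The shCBX8_2 call of CEACAM6 held without any 1 library. Its shCBX8_1 call and the shCBX8_2 call of HMGA2 were lost without 1 Control or 1 shCBX8_1 library. That of HMGA2 was also lost when only the libraries compared were fitted.

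The pattern of H19 over the 6 libraries was compared with those of 13652 tested genes with a mean of at least 1 CPM, by the root mean square distance of log2 levels centred on their mean. The 5 nearest were an entry listed only as NM_001293171, at a distance of 0.43, CCNA1 at 0.543, ANPEP at 0.639, MUC16 at 0.755 and MMP28 at 0.805. CCNA1, a cyclin gene of the germ line, was at 4.6 and 6.79 CPM in shCBX8_1 and 16.0 and 14.4 CPM in shCBX8_2, against 1.79 and 2.00 CPM in Control. ANPEP, a membrane aminopeptidase gene, was at 8.27 and 8.47 CPM in shCBX8_1 and 12.8 and 9.35 CPM in shCBX8_2, against 1.12 and 0.747 CPM in Control. MUC16, a mucin gene, was at 5.92 and 5.81 CPM in shCBX8_1 and 7.3 and 7.22 CPM in shCBX8_2, against 0.935 and 1.03 CPM in Control. MMP28, a matrix metalloproteinase gene, was at 10.6 and 11.7 CPM in shCBX8_1 and 27.9 and 21.6 CPM in shCBX8_2, against 3.54 and 6.99 CPM in Control. Over all settings, the omission of repeated accessions among them, the MMP28 difference from Control in shCBX8_2 ran from 1.15 to 2.79 log2. All 4 were higher in both hairpin groups than in Control, as the likeness to H19 requires, so no test is given. None of these 4 genes lies on chromosome 11. For the nearest entry, which was not matched to a gene, the chromosome was not available.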

How the data were processed

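RNA was measured in 3 groups of 2 libraries of A549 cells, grouped by the sample titles. The table deposited by the authors holds estimated counts per RefSeq transcript, in whole numbers and not scaled. The submitters' processing notes name HISAT2 2.2.1, StringTie 2.2.1, DESeq2 1.34.0 and hg38; for the counting step, annotation and strand setting, nothing is given in the sources used here. Of 84787 transcript entries, 99.45% were matched to a gene and summed per gene; the 467 others were kept as entries of their own. Suffixed copies of an accession, 12094 entries with 2.89 to 3.17% of a library's counts, were summed in.

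Tests used edgeR 4.0.16 (R 4.3.3): filterByExpr (minimum count 10, minimum total 15) kept 17106 genes, TMM scaling, a quasi-likelihood model of the 3 groups over all 6 libraries with 3 residual degrees of freedom, two-sided p-values adjusted by Benjamini and Hochberg, threshold 0.05. The procedure was first tested on simulated data with equal fold changes in both hairpin groups. Only the mean of both against Control was checked there, not the other comparisons. Standard errors come from the F statistic. The members and gene lists were chosen with earlier results of these data known. Named genes are the members, CBX8, up to 4 genes per list with the smallest p for both hairpin groups against Control among those that passed in any comparison with Control, and the 5 genes most like H19. IGFBP3, IGF1R, IRS2, IGF2BP2, SMC3 and the neighbouring or overlapping genes MRPL23, CD81, TSSC4, SGCE and CDKN1C were chosen after their values were seen. Alternatives were DESeq2 size factors, no filter on low counts, the DESeq2 1.42.0 Wald test, each library left out, the replicate number as a block, no repeated accessions, and only the libraries compared. Sequences and windows come from RefSeq (GRCh38.p14) and transcript starts from GENCODE by RefSeq pairing.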

Additional observations from a re-analysis of the deposited data

Results flagged for a closer look

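The difference between the hairpin groups, shCBX8_2 minus shCBX8_1, drew attention in the edgeR fit. Among the imprinted genes it was 1.88 log2 for H19, -2.37 for IGF2 and -0.83 for PEG10, given as values only since these genes were chosen by earlier values of the same libraries. Over all settings it ran from 1.78 to 1.93 for H19, from -3.49 to -1.73 for IGF2 and from -1.06 to -0.63 for PEG10.

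CBX8 passed the threshold as higher in shCBX8_2, by 1.02. The next genes are only those list genes that were named by the rule or chosen after their values were seen. Of them, those that passed as higher in shCBX8_2 than in shCBX8_1 were STC1 by 1.24, IGFBP3 by 1.20, CTSD by 0.93, SNRPN by 0.82, IGFBP1 by 0.65, SMC1A by 0.63 and SMC3 by 0.39 log2. Those that passed as lower in shCBX8_2 were HMGA2 at -2.14, IGF2BP2 at -0.93, SLC67A1 at -0.53 and PAPPA at -0.41. Other listed genes passed too, among them HTRA1 as higher by 0.59, and IGFBP6 at -0.52 and SHC1 at -0.33 as lower. The IGFBP3 call held with every library left out. Those of CBX8, STC1, CTSD, SMC1A and HMGA2 were lost without 1 shCBX8_1 library, with adjusted p up to 0.119. That of SNRPN was lost without 1 Control library or replicate 1 of shCBX8_1 (adjusted p up to 0.0836). Those of PAPPA, IGFBP1, SLC67A1, IGF2BP2 and SMC3 were lost without 1 Control or 1 shCBX8_1 library, with adjusted p up to 0.251. The calls of PAPPA, IGFBP1 and SLC67A1 were also lost without repeated accessions, those of PAPPA, IGFBP1 and SMC3 with no filter on low counts, and that of PAPPA with DESeq2 size factors. When only the libraries compared were fitted, those of SNRPN, PAPPA, IGFBP1, SLC67A1, IGF2BP2 and SMC3 were lost.

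For CTSD, IGFBP3, HMGA2, SLC67A1, IGF2BP2 and PEG10 the fitted differences from Control had opposite signs in the hairpin groups, with 2 of 2 libraries of each hairpin group on its own side of both Control libraries. Other listed genes showed the same pattern, PAX2 and NEFL among them. The share of all genes with this pattern was not counted, so nothing is read from it. The antisense gene SLC67A1-AS differed between the hairpin groups by -1.05, and the keratins KRT8 and KRT18 by 0.45 each. CCNA1 at 1.42 and the entry NM_001293171 at 1.72 were chosen for their likeness to H19, so these are values only.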

How the results depend on the processing

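Over all genes, 423 passed in shCBX8_1, 2171 in shCBX8_2, 1166 for the mean of both and 1683 between the hairpin groups. DESeq2's Wald test called 1482 in shCBX8_1, 3559 in shCBX8_2, 2439 for the mean and 2956 between the hairpin groups. Fitting only the libraries compared gave 2425 in shCBX8_1, 998 in shCBX8_2 and 640 between the hairpin groups. With the replicate number as a block, 178 passed in shCBX8_1, 1691 in shCBX8_2, 704 for the mean and 1086 between the hairpin groups. In levels summed per gene, same-numbered libraries did not deviate together (correlations of 0.0502, 0.0135 and -0.0181), so the numbers were not taken as pairs. Splits by transcript were not part of this check, and that of PLAGL1 differed by replicate number in each group. Leaving out 1 library at a time gave 0 to 2327 calls in shCBX8_1, 139 to 5529 in shCBX8_2, 1 to 4469 for the mean and 126 to 5115 between the hairpin groups. Where this leaves 1 library in a group, that library is assumed to vary like the other groups. The counts were lowest without a Control or shCBX8_1 library and highest without a shCBX8_2 library; the cause was not tested. DESeq2 size factors, no filter on low counts and no repeated accessions kept each of these 4 counts within 1.5 times.

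For the imprinted genes, H19 ranged over all settings from 2.11 to 2.26 log2 in shCBX8_1 and from 3.96 to 4.11 in shCBX8_2, PHLDA2 from 0.95 to 1.08 in shCBX8_1 and 0.68 to 0.86 in shCBX8_2, GRB10 from -0.67 to -0.52 in shCBX8_1 and -0.64 to -0.53 in shCBX8_2, and IGF2 in shCBX8_2 from -3.87 to -2.11. None of the called differences of these genes or of the named list genes changed sign under these settings. For MRPL23 and CD81, which were not called, the mean of both hairpin groups minus Control ran from -0.01 to 0.07 and from -0.01 to 0.08 log2 with 1 library left out, and was 0.25 for MRPL23 without repeated accessions. The depth limits IGF2, with 8 to 147 counts a library, most.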
